A study of Mus musculus with 26 samples.

Results

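Overexpression of Dux for 24 h was compared with untreated mouse ESCs in 4 of the 26 RNA-seq libraries of the series, chosen by their labels alone: 2 libraries of Dux OE and 2 of ESC. All 4 come from wild-type (WT) R1 ESCs, an established mouse embryonic stem cell line, which was kept with LIF on gelatin-coated plates, and all were made from poly(A) RNA. The Dux OE cells carried a doxycycline-inducible Dux transgene and received 4 µg/mL doxycycline for 24 h, and the untreated ESCs received no treatment and were kept in parallel. Uninduced cells of the Dux line were not analysed here, so that the transgene, the doxycycline and the derivation of the line cannot be told apart in this comparison. Another 4 groups of 2 libraries each were used only as references. DMSO were WT ESCs given the vehicle. Zscan4 OE and DuxR70A OE were WT ESCs induced with the same doxycycline dose and time to overexpress Zscan4, or a Dux mutant that is deficient in phase separation. SE KO Dux OE had Dux induced in the same way in cells labelled SE KO, in which a super-enhancer at the Tdpoz genes was deleted. The labels do not say that the libraries of a group came from separate cultures, so p-values measure the spread between these samples, which may be technical.

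Dux is a double-homeobox transcription factor that is present briefly in the 2-cell mouse embryo, where the embryonic genome is first transcribed. In cultured ESCs it turns on genes and MERVL retrotransposons of that stage (2C genes), and a small share of ESCs passes through such a 2C-like state without treatment. Many 2C genes belong to tandem gene families such as Zscan4, Tdpoz, Obox, Usp17l and Tcstv. Retrotransposons were not analysed here, because the deposited table counts genes.

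Levels are given as CPM, counts relative to the TMM-scaled library totals. They compare libraries and not genes of different length. A gene was called when its adjusted p was under 0.05 and its log2 fold change was at least 1 in size. The test was edgeR's quasi-likelihood F-test, with p-values adjusted by the Benjamini-Hochberg method over the 20953 genes tested of 55291. The total counts were 15016024 and 16092561 for Dux OE and 17974650 and 16880605 for ESC. A floor of detection of 3 reads corresponds on average to 0.211 CPM in Dux OE and 0.193 CPM in ESC. The floor and the counting intervals cover counting error only. The targeted gene is listed as Duxf3, a copy of the tandem Dux repeat (chr10:58229979-58232675, minus strand), and had 55 and 48 reads in Dux OE and 3 and 0 in ESC (a ratio of 37.4 with a 95% counting interval of 12.4 to 184, adjusted p = 1.0e-06). Both Dux OE libraries were thus above both ESC libraries. However, DuxR70A OE, which carries a mutant Dux transgene, had 0 and 0 CPM of Duxf3, and SE KO Dux OE had 1.46 and 1.28 CPM. How many reads of the transgene are counted on this copy is not known, so its level is no measure of the transgene. The 8 ESC markers Pou5f1, Nanog, Sox2, Zfp42, Esrrb, Dppa5a, Tdgf1 and Sall4 had reads in every library, and their summed level was 4890 and 4939 CPM in Dux OE and 5846 and 5885 CPM in ESC. Of 8 fibroblast markers 6 were tested and 0 called by edgeR or DESeq2 (3 higher at an unadjusted p under 0.05), and their sum was 62.0 and 58.1 CPM in Dux OE and 35.9 and 35.8 CPM in ESC, mostly from Thy1 and Pdgfrb, while Postn had no read in these 4 libraries.

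Dux OE changed 1992 genes (9.51% of those tested). Of these, 1547 genes (7.38%) were higher and 445 (2.12%) lower in Dux OE, and in 1985 of the 1992 the replicates of the groups did not overlap. A choice by adjusted p and size favours such a separation, so this count is a description only. The raised genes changed far more than the lowered ones. Their median log2 fold change was 3.93, against -1.53 in the lowered genes. For a gene with no read in one group the fitted value depends on the prior count, and with those genes set to their lower bound against the floor the medians were 2.5 and -1.48. On that conservative scale 658 raised genes (42.5%) rose by a log2 of at least 3, and 25 lowered genes (5.62%) fell by as much. Reads on the 1547 raised genes made up 2.91% and 3.04% of all reads in Dux OE and 0.327% in each ESC library. Reads on the 445 lowered genes made up 0.354% and 0.36% in Dux OE and 0.877% and 0.875% in ESC. Without a threshold on size, 3089 genes (14.7%) were higher and 2680 (12.8%) lower at an adjusted p under 0.05, so that falls were nearly as frequent as rises but smaller.

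**Figure D1:**
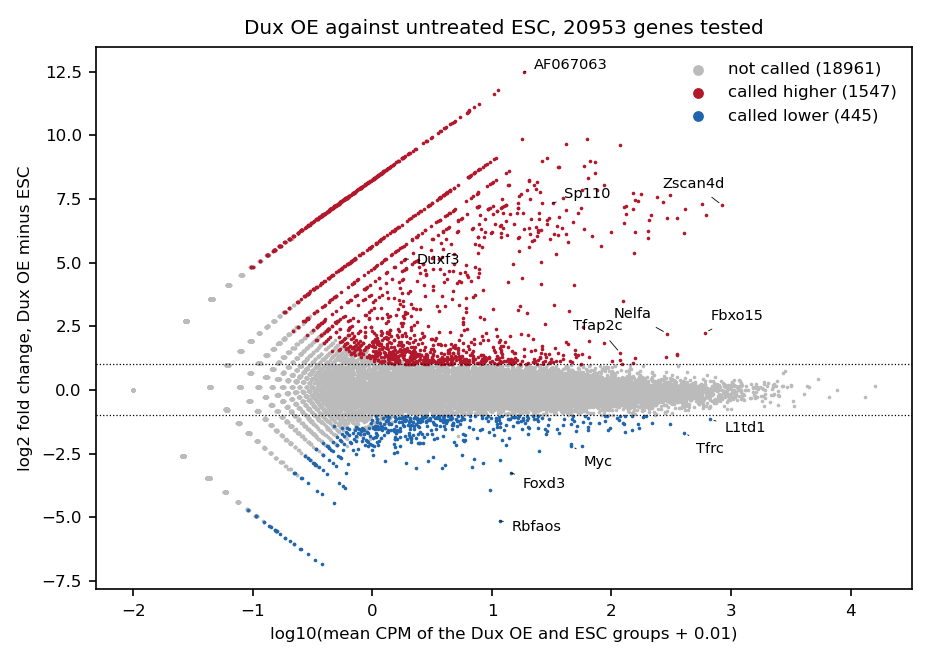
Log2 fold change of Dux OE over ESC (y axis) against the log10 of the mean CPM of both groups (x axis) for the 20953 genes tested, each point 1 gene, with called genes in red (1547 higher) and blue (445 lower) and dotted lines at log2 1 and -1. The straight bands at the upper and lower left are genes with no or few reads in one group, whose fitted fold change depends on the prior count; most raised genes lie at low to middle levels and the lowered genes stay closer to the dotted line.

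The 2 directions also differed in where the genes started. Among the raised genes, 1139 (73.6%) had a mean under 1 CPM in ESC and 327 (21.1%) had no ESC read at all, while 65 (4.2%) had a mean over 10 CPM. Among the lowered genes, 78 (17.5%) lay under 1 CPM, 252 (56.6%) between 1 and 10 CPM and 115 (25.8%) over 10 CPM. Read the other way, 15.8% of the 7217 tested genes under 1 CPM in ESC were called higher and 1.08% lower, against 0.713% and 1.26% of the 9112 genes over 10 CPM. In that upper class 1223 genes were higher and 2174 lower at an adjusted p under 0.05 without regard to size. A low gene cannot fall far and remain countable, so the shares at low level carry this limit. The share called higher at low level is favoured as well. A gene silent in ESC was tested only if some other group raised it, and 921 tested genes had no ESC read. The classes also rest on the same ESC values as the fold changes, so these shares are a description only. Because these are bulk libraries, a rise in a few cells and a smaller rise in all cells cannot be told apart, and neither can fewer cells of a type and less RNA per cell.

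**Figure D2:**
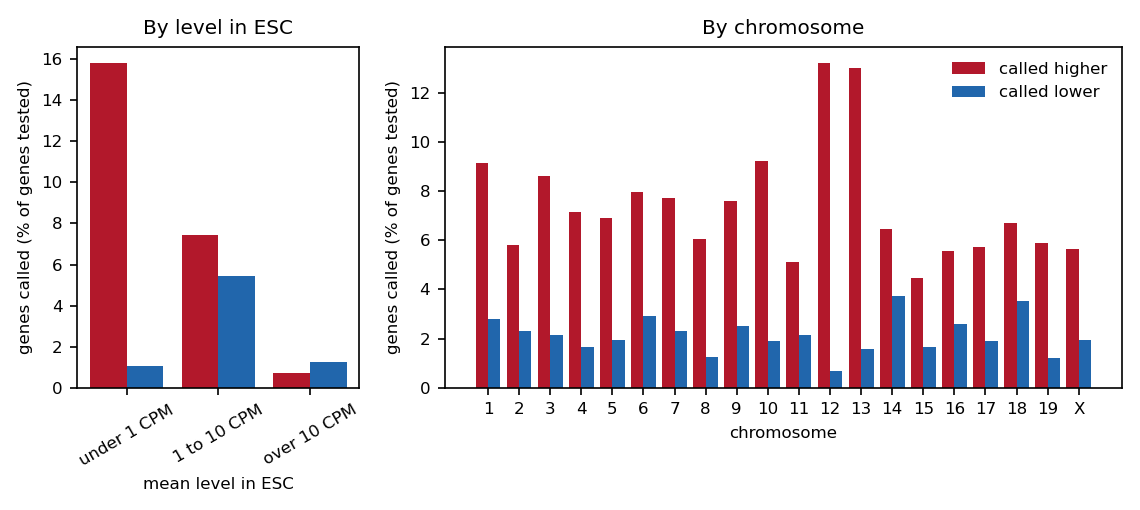
Share of tested genes called higher (red bars) and lower (blue bars) in Dux OE against ESC, in percent, by mean level in ESC (left) and by chromosome (right, chromosomes with at least 100 tested genes). The red bar falls from 15.8% under 1 CPM to 0.713% over 10 CPM, and chromosomes 12 (13.2%) and 13 (13%) have the highest shares of raised genes. The choice of tested genes favours the red share under 1 CPM.

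Several gene families known from the 2-cell embryo held raised genes. All 9 tested Zscan4 members (6 genes and 3 pseudogenes), which encode SCAN-domain zinc finger proteins known for a part in telomere maintenance, were called higher, with log2 fold changes from 6.57 to 7.7. Their summed level was 6658 and 6928 CPM in Dux OE against 49.9 and 50.1 CPM in ESC. Zscan4d (chr7:11161374-11166159, minus strand) was at 1660 and 1707 CPM in Dux OE and 12 and 10.1 CPM in ESC (log2 fold change 7.25, SE 0.15, adjusted p = 3.2e-23). Both Dux OE values thus lay more than 100-fold above both ESC values, and the ESC replicates already held some transcript. The 5 tested Usp17l genes, which encode deubiquitinases, all rose, from 11.2 and 12.5 CPM in sum in ESC to 1551 and 1628 CPM in Dux OE. Usp17le was at 528 and 553 CPM against 3.99 and 2.53 CPM. All 3 genes of the Tcstv group, named for their variable expression at the 2-cell stage, rose too. Tcstv3 was at 123 and 143 CPM against 0.249 and 0.267 CPM (adjusted p = 3.8e-19). AF067063 had 502 and 564 reads in Dux OE and 0 and 0 in ESC, at least 193-fold higher in Dux OE (adjusted p = 2.7e-13), the largest fitted rise of all genes. These copies are nearly identical within a family, and the counting may have split or dropped reads that fit several, so that single copies are uncertain and family sums are the safer measure.

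Tdpoz and Obox genes started from near silence, Prame-like genes only in part. Of 9 Tdpoz genes, which encode TRAF-domain BTB/POZ proteins, 7 were tested and 6 called higher, with a summed level of 90.9 and 100 CPM in Dux OE against 0.872 and 1.0 CPM in ESC. Tdpoz8 was at 20.3 and 21.9 CPM against 0.12 and 0.333 CPM (log2 fold change 6.51, SE 0.44, adjusted p = 6.7e-11). Of 55 Obox genes and pseudogenes (oocyte-specific homeobox) in the table only 10 passed the filter on low counts, and 9 of these were called higher. Obox4-ps33, a pseudogene, had 129 and 144 reads in Dux OE and 0 and 0 in ESC, at least 49.5-fold higher (adjusted p = 2.2e-10). The filter keeps a silent gene only if some group raises it, so the share of tested members that rose says little in such families. Of 17 Prame-like and Oog genes 11 were tested and 7 rose, with a summed level of 205 and 211 CPM in Dux OE against 44.1 and 45.6 CPM in ESC. Most of the ESC sum came from Pramef12, which stayed under the fold threshold, at 44.9 and 43.2 CPM against 32 and 32.6 CPM (log2 fold change 0.45, SE 0.11, adjusted p = 0.00292). Pramef25 went from 0.249 and 0.533 CPM to 122 and 129 CPM (log2 fold change 8.32, SE 0.25, adjusted p = 1.3e-19). Pramef6 had 183 and 209 reads in Dux OE and 0 and 2 in ESC (a ratio of 214 with a 95% counting interval of 58.7 to 1769, adjusted p = 3.2e-11). Of the 4 genes Trim43a to Trim43c and Trim75, Trim75 alone was called, at 34.3 and 30.4 CPM against 0.187 and 0.333 CPM (adjusted p = 2.7e-15).

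**Figure D3:**
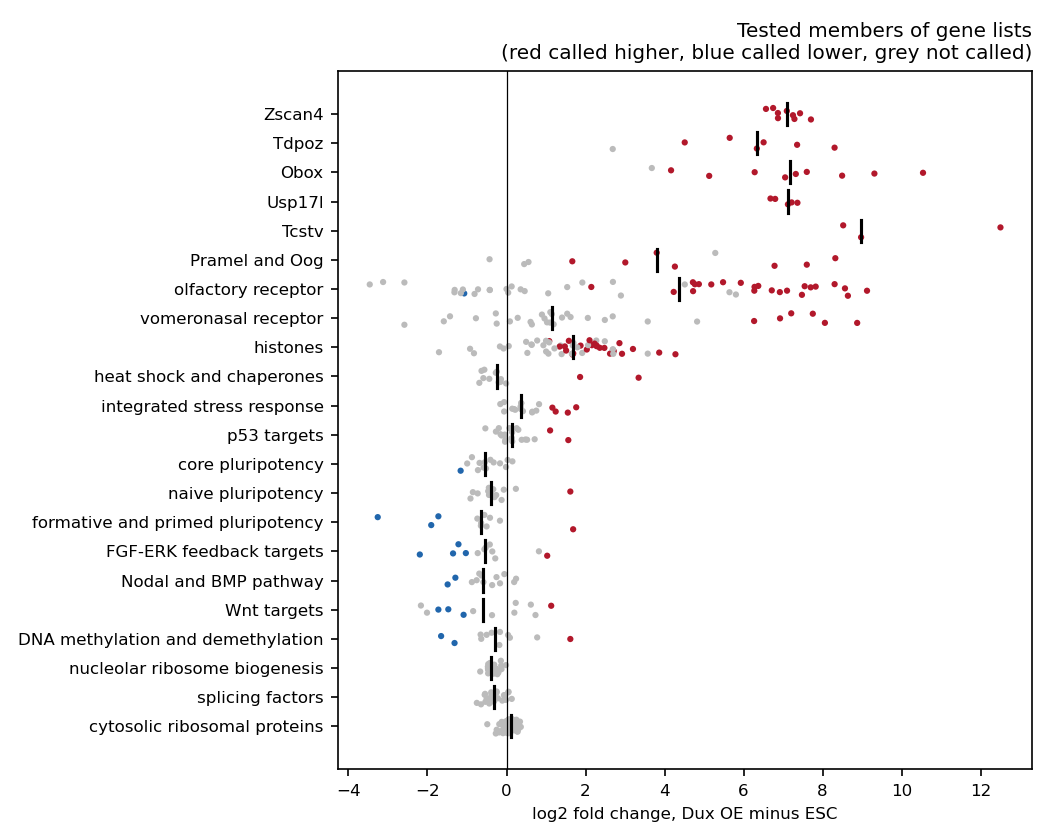
Log2 fold change of Dux OE over ESC (x axis) of every tested member of 22 gene lists (rows), each point 1 gene, red called higher, blue called lower, grey not called, with a black bar at the list's median fitted value; points are shifted vertically at random. The Zscan4, Tdpoz, Obox, Usp17l and Tcstv members lie to the right of 2, while all 25 nucleolar genes lie slightly to the left of 0 without a call.

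The largest class of raised genes was unnamed. Predicted genes with Gm symbols made up 597 of the 1547 raised genes, from 4053 tested (14.7% called higher and 94 called lower). By annotated type, 884 raised genes were protein-coding (5.69% of the protein-coding genes tested, against 7.38% of all genes), 180 were processed pseudogenes (12%), 71 unprocessed pseudogenes (38%) and 120 lincRNAs (15.4%). A silent gene was tested only if some group raised it, and of 27593 Gm genes in all 4053 were tested. The shares called higher among Gm genes, pseudogenes and lincRNAs therefore say little. The lowered genes held 306 protein-coding genes, 40 lincRNAs and 2 unprocessed pseudogenes. Among the raised unnamed genes with the largest changes, Gm17895 had 301 and 334 reads in Dux OE and 0 and 0 in ESC (at least 115-fold higher, adjusted p = 6.1e-12). Gm31641 had 289 and 297 reads in Dux OE and 0 and 0 in ESC (at least 106-fold higher). Gm45659 had 197 and 245 reads in Dux OE and 0 and 0 in ESC (at least 79.9-fold higher). Others were abundant. Gm5662 on chromosome 12 was at 756 and 830 CPM in Dux OE and 11.8 and 10.5 CPM in ESC (log2 fold change 6.15, SE 0.16, adjusted p = 1.7e-21). Gm5039 on chromosome 12 was at 682 and 714 CPM against 6.79 and 6.07 CPM, and Gm21761 on chromosome 13 was at 594 and 625 CPM against 2.93 and 3.07 CPM (log2 fold change 7.67, SE 0.16, adjusted p = 3.2e-23). In each of these 3 genes the lowest Dux OE value was more than 60 times the highest ESC value.

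Raised genes often lay next to each other. Of the raised genes 606 (39.2%) had another raised gene within 100 kb, while 14.5% of the other tested genes had one; for the lowered genes these shares were 18.4% and 7.72%. Runs of at least 5 raised genes, each at most 200 kb from the next, numbered 29 and held 281 of the raised genes (18.2%) among 345 tested genes in their spans, and the lowered genes formed 0 such runs. The longest run, at chr12:87480108-88324026, held 55 raised genes of 58 tested, among them Oog1 and a series of Gm genes, with a summed level of 3651 CPM in Dux OE and 44.0 CPM in ESC. The runs with named families lay at chr7:10794242-11614112 (Zscan4, 18 of 21 tested), chr3:93628640-94266784 (Tdpoz, 21 of 22), chr13:119827961-120318178 (Tcstv, 12 of 14), chr4:143267431-143994369 (Prame-like, 11 of 15) and chr7:15388721-15904020 (Obox, 8 of 9). The 5 tested genes at chr10:58222972-58240661, the Dux repeat itself, all rose, including Duxf3. At chr1:85501090-85650585 all 6 tested genes rose, with Sp110 and Sp140, which encode nuclear body proteins of the speckled protein family. Sp110 was at 60.9 and 66.6 CPM against 0.12 and 0.667 CPM (log2 fold change 7.34, SE 0.38, adjusted p = 1.6e-14) and Sp140, named after its values were seen, at 18.2 and 18.5 CPM against 0.249 and 0 CPM. At chr2:122120108-122347972 a run of 7 raised genes of 9 tested held the hydrogen peroxide-forming oxidases Duox1 and Duox2 with their maturation factors. Neighbouring copies can share reads, so the members of a run are not independent of each other. Each span reaches from the first to the last raised gene of its run. The filter on low counts also keeps a silent gene only if some group raises it. The shares of tested genes that rose within runs are therefore high by construction and are a description only.

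Of the 1408 listed olfactory receptor genes 48 were tested. Of these 23 rose (47.9%, beside 7.38% of all tested genes) and 1 fell (2.1%, beside 2.12%). The filter on low counts keeps a silent gene only if some group raises it, so the share that rose says little. Olfr374 had 290 and 324 reads in Dux OE and 1 and 0 in ESC (a ratio of 669 with a 95% counting interval of 120 to 26461, adjusted p = 1.2e-12). Olfr1276 had 34 and 39 reads in Dux OE and 0 and 0 in ESC (at least 13.2-fold higher). Olfr985, in contrast, was lower, at 2.48 and 2.5 CPM against 5.85 and 4.6 CPM (log2 fold change -1.07, SE 0.29, adjusted p = 0.00616). The summed level of the tested olfactory receptors was 110 and 119 CPM in Dux OE and 15.5 and 17.3 CPM in ESC. Of the 589 vomeronasal (pheromone) receptor genes 31 were tested and 6 rose (19.4%), a share under the same limit of the filter. Vmn1r227 had 223 and 295 reads in Dux OE and 1 and 0 in ESC, and Vmn1r88 had 577 and 696 reads in Dux OE and 4 and 1 in ESC. Some single genes from other families, named after their values were seen, also rose from few or no ESC reads. The netrin receptor gene Dcc had 526 and 646 reads in Dux OE and 3 and 1 in ESC. The dopamine receptor gene Drd3 had 107 and 129 reads in Dux OE and 0 and 1 in ESC. The LIM homeobox gene Lmx1a had 481 and 717 reads in Dux OE and 4 and 8 in ESC. The neural list held 1 call among 8 tested genes, 4 of which had a negative log2 fold change, with a median of -0.15. The called gene was the microtubule-associated protein gene Map2, which at 11.4 and 13 CPM against 5.36 and 4.13 CPM was higher than in ESC but lower than its means of 22.3 CPM in DMSO and 18.3 CPM in DuxR70A OE.

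Many histone genes of the replication-dependent clusters rose, though their level in poly(A) libraries stayed low. These transcripts normally end in a stem-loop without a poly(A) tail, so the libraries catch only a part of them. Of 71 histone genes under current names, a list added after the data were seen, 55 were tested, 23 (41.8%) called higher and 0 lower. Over all tested genes 7.38% were called higher and 2.12% lower. The list also holds the replication-independent linker histones H1f0 and H1f10. Of the 55 genes 50 had a positive log2 fold change with a median of 1.69 against 0.00 over all genes. Of the 23 called genes 19 had under 1 CPM in ESC. Summed over the 23, the level was 73.9 and 82.1 CPM in Dux OE and 23.7 and 26.1 CPM in ESC. The same sum was 32.3 and 31.9 CPM in DMSO, 41.0 and 39.4 in Zscan4 OE, 46.7 and 36.0 in DuxR70A OE and 43.2 and 48.9 in SE KO Dux OE. The replication-independent H1f10 held 27.3 and 32 CPM of this sum in Dux OE, 12.5 and 15.5 in ESC and 37.8 and 26.9 in DuxR70A OE. These 23 genes were chosen by their rise against ESC, so the order against ESC is given by the choice. Over all 55 tested histone genes the sum was 346 and 361 CPM in Dux OE and 183 and 184 CPM in ESC. It was 342 and 343 CPM in DMSO, 350 and 355 in DuxR70A OE, 304 and 344 in SE KO Dux OE and 261 and 251 in Zscan4 OE. H1f0 alone made up most of this sum. Its level was 239 and 243 CPM in Dux OE, 290 and 289 in DMSO, 279 and 294 in DuxR70A OE and 221 and 250 in SE KO Dux OE. The sum over all 55 therefore does not show how the other histone genes differ between the groups. Hist1h4n was at 3.79 and 5.14 CPM against 0.374 and 0.0667 CPM (log2 fold change 4.28, SE 0.54, adjusted p = 7.5e-07). H4c1 was at 2.99 and 1.89 CPM against 0.12 and 0.200 CPM and H4c4 at 2.04 and 1.62 CPM against 0.249 and 0.133 CPM, the last 2 named after their values were seen. H1f0, whose transcript is polyadenylated, was at 239 and 243 CPM against 126 and 126 CPM, a log2 fold change of 0.93 that stayed under the threshold. H2bc4 had a log2 fold change of -0.92, likewise not called. Of the 23 histone genes 14 were also called higher against DMSO, 18 against DuxR70A OE and 11 against Zscan4 OE.

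A small set of genes that ESCs already expressed rose further. Of the 65 raised genes with over 10 CPM in ESC, 17 were also called higher against each of DMSO, Zscan4 OE and DuxR70A OE. Fbxo15, which encodes an F-box protein and is a known marker of undifferentiated ESCs, was at 1007 and 989 CPM in Dux OE and 209 and 211 CPM in ESC (log2 fold change 2.25, SE 0.08, adjusted p = 3.7e-18). Its means were 184 CPM in DMSO, 409 in Zscan4 OE, 103 in DuxR70A OE and 612 in SE KO Dux OE. Nelfa, a subunit of the negative elongation factor of RNA polymerase II that is known to activate Dux, was at 483 and 478 CPM against 104 and 103 CPM (log2 fold change 2.22, SE 0.09, adjusted p = 4.1e-17). Its means were 81.9 CPM in DMSO and 72.5 CPM in DuxR70A OE. The following were named after their values were seen. Scamp1, which encodes a membrane protein of secretory vesicles, was at 98 and 98.4 CPM against 17.6 and 17.7 CPM (log2 fold change 2.47). Dennd4c, an exchange factor for Rab GTPases, was at 131 and 139 CPM against 37.5 and 37.4 CPM (1.85). The DNA repair genes Mcm9, at 72.5 and 75 CPM against 23.7 and 26.1 CPM (1.56), and Ercc4, at 66.7 and 76.2 CPM against 25.4 and 28.2 CPM (1.42), rose by similar amounts. Genes of metabolism in this set were Uap1, an enzyme of UDP-N-acetylglucosamine synthesis, at 140 and 136 CPM against 65.2 and 60.7 CPM, and the mitochondrial glutaredoxin Glrx2 at 89.8 and 93.1 CPM against 38.5 and 36.3 CPM. The fatty acid transporter Slc27a2 was at 37.8 and 33.9 CPM against 15.6 and 13.7 CPM. Ddit4l, an inhibitor of mTORC1 signalling, was at 65.3 and 64.7 CPM against 17.3 and 17.7 CPM (log2 fold change 1.89, SE 0.12, adjusted p = 1.9e-12). Tfap2c, a transcription factor of trophoblast and germ cells, was at 170 and 178 CPM against 64.9 and 63.3 CPM (log2 fold change 1.44, SE 0.10, adjusted p = 8.6e-12). Both libraries were above its means of 81.9 CPM in DMSO, 77.7 in Zscan4 OE, 90 in DuxR70A OE and 87.3 in SE KO Dux OE.

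**Figure D4:**
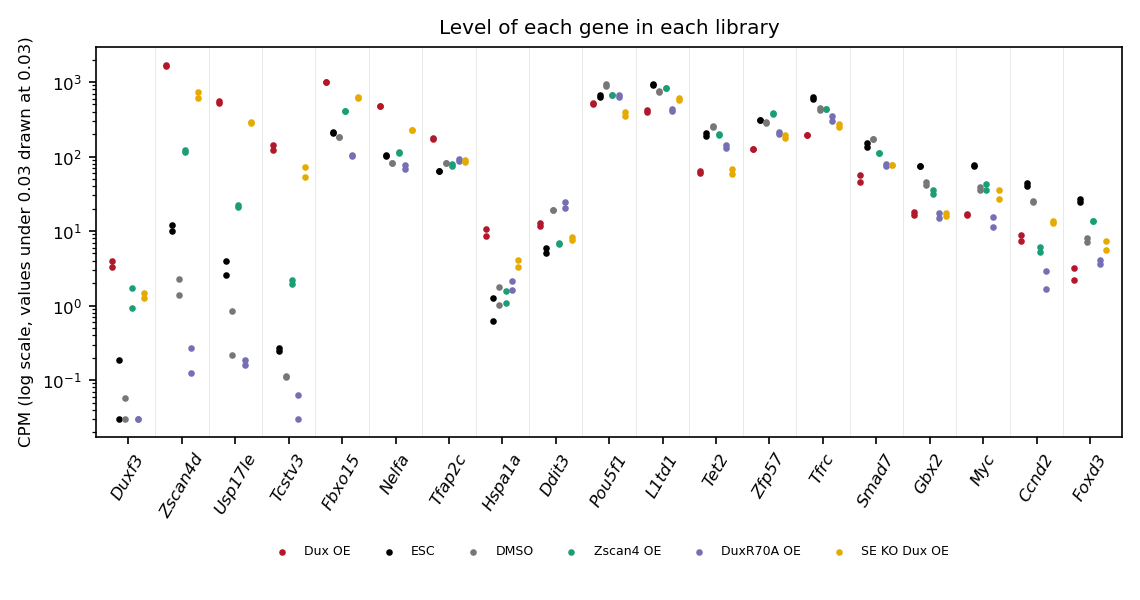
Level of 19 genes in CPM (log scale, values under 0.03 drawn at 0.03) in each library, with both replicates of Dux OE (red), ESC (black), DMSO (grey), Zscan4 OE (green), DuxR70A OE (purple) and SE KO Dux OE (yellow) side by side. The genes from Duxf3 to Hspa1a are highest in Dux OE, whereas for Ddit3 the DMSO and DuxR70A OE points lie above Dux OE, and for Gbx2, Myc and Ccnd2 the DuxR70A OE points reach or pass below Dux OE.

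Enzyme, transporter and matrix gene families held raised members at shares on both sides of the 7.38% of all tested genes. Of 45 tested ABC transporter genes 7 rose (15.6%) and 0 fell. Abcb5 was at 34 and 32.3 CPM against 0.12 and 0.200 CPM (log2 fold change 7.63, SE 0.37, adjusted p = 7.9e-15) and Abcg3 at 4.74 and 3.11 CPM against 0.249 and 0.600 CPM. Of 41 tested cytochrome P450 genes 7 rose (17.1%), with Cyp27a1, a sterol hydroxylase, at 2.41 and 2.23 CPM against 0.249 and 0.333 CPM and a mean of 3.37 CPM in DuxR70A OE. Of 314 solute carrier genes 19 rose (6.1%) and 9 fell (2.9%, beside 2.12% of all tested genes). The mitochondrial carrier gene Slc25a18 was at 5.69 and 6.49 CPM against 0.249 and 0.467 CPM, and Slc22a28 had 36 and 33 reads in Dux OE and 0 and 0 in ESC, at least 12.6-fold higher. Of 42 collagen genes 4 rose (9.5%), among them Col13a1 at 16.8 and 18.2 CPM against 4.98 and 6.2 CPM and Col22a1 at 7.44 and 8.72 CPM against 3.55 and 3.4 CPM, and 34 of the 42 had a positive log2 fold change. Col13a1 had means of 16.9 CPM in DMSO, 12.3 in Zscan4 OE and 9.49 in DuxR70A OE. Serpin genes went both ways, 3 higher and 3 lower of 22 (13.6% each). Serpine2, a protease nexin, was at 32.3 and 35.3 CPM against 15.5 and 14.5 CPM. Its means were 7.45 CPM in DMSO, 33.6 in Zscan4 OE and 32.9 in DuxR70A OE. Of 423 zinc finger genes with Zfp, Zkscan or Zscan symbols 19 rose (4.5%), the 9 Zscan4 members among them, and 11 fell (2.6%), and 282 had a negative log2 fold change with a median of -0.18. Zfp352, a zinc finger gene of the 2-cell stage, had 1144 and 1244 reads in Dux OE and 3 and 0 in ESC (a ratio of 867 with a 95% counting interval of 296 to 4208, adjusted p = 4.1e-17). The pseudogene Zfp353-ps was at 53.5 and 50.2 CPM against 0.0623 and 0.133 CPM. Zfp809, which encodes a zinc finger protein that silences retroviral sequences, was at 61.8 and 61.8 CPM against 30.1 and 26.4 CPM (log2 fold change 1.13, SE 0.12, adjusted p = 2.6e-08).

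The promoters of the raised genes were searched for the letters GATTNAATC, the core of the motif that Dux is known to bind, which reads the same on both strands. The search used the RefSeq promoters of GRCm38.p6, from 250 bases before to 50 bases after each gene's start, and 778 of the 1547 raised and 267 of the 445 lowered genes have one. The letters occurred in 14 raised promoters (1.80%), in 0 lowered ones, in 35 of the 13364 tested promoters (0.262%) and in 83 of all 27025 promoters (0.307%). Of the raised genes with a fitted log2 fold change of 3 or more, 12 of 308 (3.90%) held the letters, and of the other raised genes 2 of 470 (0.426%). Among genes with under 1 CPM in ESC that were not called, the share was 0.179% (5 of 2799). Several of the 14 are copies of one another, so they do not count as separate cases. Of the 59-base windows around the letters, which stand in capitals, 5 are shown to let the surroundings be compared, each 5′ to 3′ on the strand given.
Gm21761 (chr13:119913560-119913618, minus strand): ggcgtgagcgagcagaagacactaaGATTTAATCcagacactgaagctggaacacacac
Eif4a3l1 (chr6:136327398-136327456, plus strand): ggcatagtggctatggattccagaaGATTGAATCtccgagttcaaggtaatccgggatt
Gm35974 (chr16:3468292-3468350, plus strand): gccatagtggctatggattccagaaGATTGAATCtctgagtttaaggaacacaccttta
Gm12724 (chr4:106236954-106237012, plus strand): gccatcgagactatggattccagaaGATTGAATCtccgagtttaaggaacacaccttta
Duxf3 (chr10:58233195-58233253, minus strand): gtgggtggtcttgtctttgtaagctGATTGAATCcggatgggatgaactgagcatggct
The windows of Eif4a3l1, Gm35974 and Gm12724, which lie on chromosomes 6, 16 and 4, are alike before the letters and go on alike past them, for Gm35974 and Gm12724 to the end of the window and for Eif4a3l1 over the first bases only. Those of Gm21761 and Duxf3 read differently around the letters. Eif4a3l1, a gene related to the RNA helicase of the exon junction complex, was at 472 and 476 CPM against 2.55 and 2.4 CPM (log2 fold change 7.58, SE 0.19, adjusted p = 5.9e-22). Gm35974 was at 47 and 48.6 CPM against 0.249 and 0.0667 CPM, and Gm12724 had 163 and 207 reads in Dux OE and 0 and 0 in ESC. Reads of Gm12724 were counted over chr4:106241216-106290026 on the plus strand. Its window lies upstream of that span and not close to its start.

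The part of the shared sequence up to the end of the letters was then followed through all promoters. This 34-base stretch, taken from the promoter of Gm4340 (400 and 205 CPM against 9.22 and 5.33 CPM), was counted as present where at least 28 bases matched without a gap. It occurred in 28 of the 27025 promoters (0.104%), in 14 of the tested genes (0.105%), in 9 of the 778 raised genes with a promoter (1.16%) and in 0 of the 267 lowered ones. All 9 rose by a fitted log2 of at least 3, though Gm21304, Gm20765, Esp24 and Gm12724 had no read in ESC: Gm21304, Gm20765 and Gm4340, which are neighbours on chromosome 10, Gm35974, Eif4a3l1, Gm12790, Esp24, Gm12724 and Sp110. The other 5 tested genes with the stretch were not called, namely Arih2, Pemt, Sgk1, Gm15411 and Amd2. The stretch is shown for Gm4340, for the raised gene Sp110 and for the gene Arih2 that was not called, with the bases that differ from Gm4340 in capitals.
Gm4340 (chr10:104193871-104193904, plus strand): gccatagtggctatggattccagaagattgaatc
Sp110 (chr1:85604079-85604112, minus strand): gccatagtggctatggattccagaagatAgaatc
Arih2 (chr9:108653763-108653796, minus strand): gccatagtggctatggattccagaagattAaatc
Sp110 and Arih2 each differ from Gm4340 in 1 base, and the change in Sp110 falls inside the searched letters, so that Sp110 holds the stretch without them. The Sp110 stretch lies outside the span in which Sp110 was counted (chr1:85576899-85598817) and inside that of Sp140 (chr1:85600378-85645037). Sp110 rose by a log2 of 7.34, while Arih2, a ubiquitin ligase gene expressed in ESCs, had a log2 fold change of -0.19 at means of 176 CPM in Dux OE and 200 CPM in ESC. The stretch and the genes were chosen after the values were seen, and presence of the letters in a window is no evidence of binding.

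Whole promoters of 300 bases are shown for an abundant raised gene with the letters and one without them. Zscan4d, at 1660 and 1707 CPM against 12 and 10.1 CPM, has none, and Gm21761, at 594 and 625 CPM against 2.93 and 3.07 CPM, has 1 match, in capitals. Reads of Gm21761 were counted over chr13:119912095-119929272 on the minus strand. Its RefSeq promoter lies inside that span and not at its start.
Gm21761 (chr13:119913419-119913718, minus strand): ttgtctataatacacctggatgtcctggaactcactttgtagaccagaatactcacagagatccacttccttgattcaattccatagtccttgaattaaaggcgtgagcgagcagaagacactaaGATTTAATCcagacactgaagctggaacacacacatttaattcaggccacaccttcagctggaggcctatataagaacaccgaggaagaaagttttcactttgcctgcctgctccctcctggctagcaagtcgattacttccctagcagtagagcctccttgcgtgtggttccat
Zscan4d (chr7:11166099-11166398, minus strand): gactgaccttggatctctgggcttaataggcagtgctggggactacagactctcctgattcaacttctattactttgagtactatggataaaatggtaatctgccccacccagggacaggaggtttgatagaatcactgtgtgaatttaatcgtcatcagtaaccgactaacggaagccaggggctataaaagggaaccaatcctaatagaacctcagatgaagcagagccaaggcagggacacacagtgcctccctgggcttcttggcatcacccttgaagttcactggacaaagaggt

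Stress lists held a few raised genes each, to be read beside the 7.38% of all tested genes called higher. Of 13 heat shock and chaperone genes 2 (15.4%) were called higher, while 11 had a negative log2 fold change. The inducible Hsp70 gene Hspa1a was at 8.53 and 10.5 CPM against 0.623 and 1.27 CPM (log2 fold change 3.34, SE 0.34, adjusted p = 1.5e-08), and its neighbour and near copy Hspa1b was at 18.7 and 17.4 CPM against 4.24 and 5.73 CPM (log2 fold change 1.86, SE 0.17, adjusted p = 2.4e-09). Of 19 genes of the integrated stress response 4 (21.1%) were higher. They were the transcription factor genes Ddit3 (11.7 and 13 CPM against 5.05 and 6.0 CPM) and Atf3 (3.14 and 2.84 CPM against 1.25 and 1.27 CPM), the stress-induced Nupr1 (7.44 and 5.27 CPM against 2.12 and 2.2 CPM) and the lipoprotein receptor gene Vldlr (3.28 and 2.03 CPM against 0.872 and 0.667 CPM). All 4 of these were higher still in DMSO, with means of 19.3, 6.7, 14.6 and 14.6 CPM, and in DuxR70A OE, so that their rise against ESC does not hold against those references. Of 20 p53 target genes Plk2 (59.5 and 67 CPM against 30.1 and 28.7 CPM) and Fas (0.875 and 0.676 CPM against 0.374 and 0.133 CPM, adjusted p = 0.0472, lost under the replicate block and without 3 of the 4 libraries in turn) were higher. Of 21 apoptosis genes 0 were called (4 higher and 7 lower at an adjusted p under 0.05). In the list of 18 interferon response genes, 15 of them tested, Sp110 and Usp18 were higher and the RNA sensor gene Ddx58 lower. Ddx58 was at 12.5 and 13.5 CPM against 42.9 and 44.3 CPM (log2 fold change -1.74, SE 0.21, adjusted p = 4.0e-07). Usp18 had 4 and 3 reads in Dux OE and 0 and 0 in ESC, and its call was lost without any 1 of the 4 libraries, and Ddx58 had means of 15.5 CPM in DMSO and 37.3 CPM in Zscan4 OE. Of 15 genes of antigen presentation the nonclassical class I gene H2-M3 (1.82 and 1.69 CPM against 0.623 and 0.400 CPM) and the peptide transporter gene Tap1 (3.65 and 4.53 CPM against 1.49 and 1.67 CPM) were higher. Their means in DuxR70A OE were 1.99 and 10.3 CPM.

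Lowered genes kept their call under other controls less often than raised genes did. Against DMSO, 2408 genes (11.5%) were higher and 1403 (6.7%) lower, against Zscan4 OE 1759 (8.39%) and 1041 (4.97%), and against DuxR70A OE 1574 (7.51%) and 1280 (6.11%). These comparisons share the Dux OE libraries with the one against ESC and are no independent repeats. Of the 1547 raised genes, 1116 (72.1%) were called higher against DMSO, 984 (63.6%) against Zscan4 OE and 984 (63.6%) against DuxR70A OE, and 850 (54.9%) against all of ESC, DMSO, Zscan4 OE and DuxR70A OE. Of the 445 lowered genes, 135 (30.3%) were called lower against DMSO, 146 (32.8%) against Zscan4 OE and 82 (18.4%) against DuxR70A OE, and 36 (8.09%) against all 4. Lowered genes lay nearer the fold threshold (median -1.53 against 3.93), so a small shift ends their call more easily. The sign alone was kept by 1371 raised and 332 lowered genes against DMSO. Against Zscan4 OE 1390 and 376 kept it, and against DuxR70A OE 1265 and 287. The mean of the lowered genes was below that of ESC for 353 of the 445 genes (79.3%) in DMSO, 369 (82.9%) in Zscan4 OE and 389 (87.4%) in DuxR70A OE. Over all genes tested these shares were 51.6%, 48.5% and 48.9%. The lowered genes were chosen with the same ESC values, which favours a mean below ESC in any other group, so these shares are a description only. With DuxR70A OE as the control the sign turned for the lowered genes Ccnd1, Ccnd2, Cdk6, Dido1, Gbx2, Gpr83, Id3, Lef1, Myc, Notum, Rarg, Setd1b, Zfp324, Zfp532 and Zic2 among those named. What sets untreated ESC apart from these groups was not tested.

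**Figure D5:**
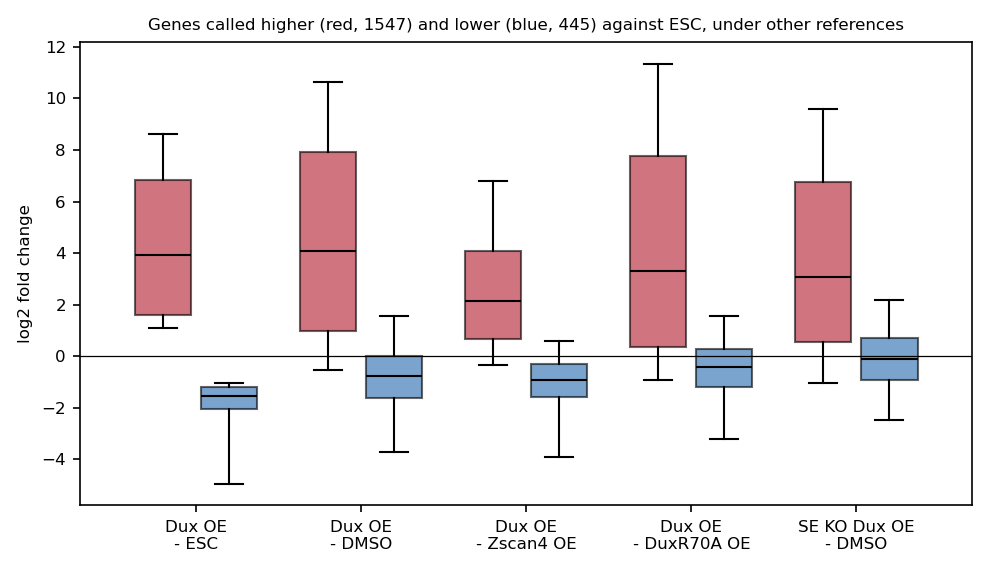
Log2 fold changes of the 1547 genes called higher (red) and the 445 called lower (blue) in Dux OE against ESC, under that comparison and 4 others (x axis); boxes span the quartiles with the median as a line, whiskers the 5th to 95th percentile, and the selection in the first comparison fixes its direction there. The fitted red medians stay between 2.15 and 4.07, while the blue medians move from -1.53 to between -0.90 and -0.12.

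The 36 genes that were lower in Dux OE than in all 4 references hold metabolic, signalling and chromatin genes. Tet2, a dioxygenase that oxidises 5-methylcytosine, was at 60.8 and 64.5 CPM in Dux OE and 190 and 205 CPM in ESC (log2 fold change -1.66, SE 0.14, adjusted p = 4.0e-10). Its means were 253 CPM in DMSO, 198 in Zscan4 OE, 137 in DuxR70A OE and 62.9 in SE KO Dux OE. The early response gene Egr1 was at 3.79 and 4.73 CPM against 8.72 and 8.73 CPM (log2 fold change -1.03, SE 0.24, adjusted p = 0.00193), far below its means of 112 CPM in Zscan4 OE and 76.4 CPM in DuxR70A OE. Its call against ESC was lost, at a log2 of -0.88, without the first Dux OE library. Soga3 (1.68 and 1.62 CPM against 9.22 and 10 CPM) and Gm46332 (1.9 and 1.08 CPM against 11.1 and 13 CPM) also belong to the 36. Others, named after their values were seen, are Nt5e, the ecto-nucleotidase CD73, at 1.02 and 0.811 CPM against 6.98 and 7.33 CPM, Ndrg1 at 4.01 and 5.41 CPM against 13.6 and 18.7 CPM, with 93.7 CPM in DMSO. Sall3, a zinc finger gene of the Sall family, was at 2.77 and 1.89 CPM against 8.35 and 9.66 CPM. Stc1, which encodes the secreted stanniocalcin, had 1 and 1 reads in Dux OE and 12 and 9 in ESC. Ppp1r3g, a glycogen-targeting phosphatase subunit, had 0 and 0 reads in Dux OE and 10 and 10 in ESC (at least 3.06-fold lower, adjusted p = 0.00264).

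Other lowered genes with large changes were lower than in ESC but close to 1 or more references. Rbfaos, a transcript antisense to Rbfa, was at 0.948 and 0.338 CPM in Dux OE and 21.2 and 23.9 CPM in ESC (log2 fold change -5.14, SE 0.28, adjusted p = 4.5e-14), the largest fall among genes with a mean of at least 5 CPM over the 4 libraries. Its means were 2.23 CPM in DMSO, 7.23 in Zscan4 OE, 1.06 in DuxR70A OE and 0.912 in SE KO Dux OE. Whether reads were counted by strand is not given in the sources used here, so antisense genes and their partners may share reads. The forkhead gene Foxd3, a factor of the exit from naive pluripotency, was at 3.21 and 2.23 CPM against 27 and 24.9 CPM (log2 fold change -3.26, SE 0.18, adjusted p = 7.7e-14), with 3.86 CPM in DuxR70A OE. Gpr83 (2.26 and 1.82 CPM against 16.4 and 13.1 CPM) and Lonrf2 (2.92 and 3.04 CPM against 21.5 and 19.3 CPM) were as low in DMSO, at 2.07 and 3.41 CPM. The transglutaminase gene Tgm3 was at 1.75 and 1.96 CPM against 11.1 and 13.7 CPM. Setd1b, a histone H3K4 methyltransferase gene, was at 20.8 and 19.9 CPM against 90.6 and 96.6 CPM (log2 fold change -2.20, SE 0.14, adjusted p = 1.2e-12), where DuxR70A OE had 19.6 CPM. Among called genes the largest falls in CPM were those of L1td1, an RNA-binding protein gene derived from a LINE-1 element, at 424 and 399 CPM against 904 and 938 CPM (log2 fold change -1.16, SE 0.08, adjusted p = 3.9e-12), and of the transferrin receptor gene Tfrc, at 195 and 192 CPM against 598 and 637 CPM (log2 fold change -1.68, SE 0.09, adjusted p = 1.5e-14). Dido1 was at 173 and 176 CPM against 448 and 430 CPM, and Epha2, an ephrin receptor gene, at 83.3 and 92 CPM against 249 and 249 CPM. Zinc finger genes followed, Zfp57 at 124 and 124 CPM against 309 and 310 CPM and Zfp532 at 70.7 and 76.4 CPM against 224 and 220 CPM. For L1td1 and Tfrc, DuxR70A OE had 421 and 323 CPM.

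Pluripotency factors stayed expressed, with small falls against ESC. Of 14 core pluripotency genes 1 (L1td1) was called lower, 12 had a negative log2 fold change with a median of -0.53, and 9 besides L1td1 fell at an adjusted p under 0.05. So did 12.8% of all genes, and 2174 of the 9112 genes over 10 CPM in ESC. Pou5f1 was at 505 and 530 CPM against 659 and 638 CPM (log2 fold change -0.33, SE 0.10, adjusted p = 0.0144), and Nanog was at 509 and 502 CPM against 664 and 677 CPM (log2 fold change -0.41, SE 0.07, adjusted p = 9.4e-05). Sox2 was at 369 and 393 CPM against 391 and 377 CPM (log2 fold change -0.01, SE 0.11, adjusted p = 0.965). Utf1 (-0.87), Lin28a (-0.72), Zfp281 (-0.68), Sall4 (-0.58) and Trim71 (-0.55) had log2 fold changes short of the threshold, as had Gdf3 at -1.0 by a small margin. Tdgf1 (-0.16), Dppa5a (0.03) and Tcf3 (0.15) had an adjusted p over 0.05. Of 15 naive pluripotency genes 13 were negative, 10 of them at an adjusted p under 0.05. The log2 fold changes of these 10 were -0.46 for Zfp42, -0.26 for Esrrb, -0.34 for Tfcp2l1, -0.44 for Klf5, -0.73 for Tbx3, -0.91 for Nr0b1, -0.85 for Prdm14, -0.43 for Fgf4, -0.30 for Nr5a2 and -0.45 for Stat3. Klf2 (-0.12), Klf4 (-0.38), Tcl1 (0.24) and Sox15 (-0.07) did not pass. Dppa3, a maternal factor that protects methylation in the zygote, was called higher, at 1.97 and 1.42 CPM against 0.685 and 0.400 CPM, with 5.73 CPM in Zscan4 OE. Its call was lost without the first Dux OE or the second ESC library. Against DMSO the medians of the core and naive lists were -0.6 and -0.24, with 3 genes called lower in each. Against Zscan4 OE the medians were -0.46 and -0.26, with 3 genes called lower in the core list and 2 in the naive list. Against DuxR70A OE the medians of the 2 lists were 0.07 and 0.13, with 0 genes called lower in the core list and 1 in the naive list.

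Some signalling and cell cycle lists held lowered genes, to be read beside the 2.12% of all tested genes called lower and the 7.38% called higher. Among 12 feedback targets of FGF-ERK signalling 4 were lower (33.3%) and 1 higher (8.3%). Myc, a growth-promoting transcription factor gene, was at 16.7 and 16.4 CPM in Dux OE and 77.7 and 73.5 CPM in ESC (log2 fold change -2.19, SE 0.14, adjusted p = 6.4e-13). The pathway inhibitor Spry4 was at 89.6 and 96.3 CPM against 246 and 229 CPM (log2 fold change -1.35, SE 0.08, adjusted p = 8.6e-13). The ERK phosphatase gene Dusp6 was at 27.4 and 30.9 CPM against 66.9 and 68.7 CPM, whereas its relative Dusp4 was higher, at 6.49 and 9.8 CPM against 3.61 and 4.4 CPM. Spry4 and Dusp6 were at 379 and 65.9 CPM in DMSO, and Myc was at 13.4 CPM in DuxR70A OE, below Dux OE. Of 13 genes of the Nodal and BMP pathways 11 were negative and 2 called lower (15.4%). These were the inhibitory Smad7 (45.6 and 55.7 CPM against 150 and 135 CPM, log2 fold change -1.49, SE 0.13, adjusted p = 7.7e-10) and the BMP target Id3 (10.9 and 11.2 CPM against 28.2 and 25.9 CPM). Against the 4 references ESC, DMSO, Zscan4 OE and DuxR70A OE the numbers of this list called lower were 2, 7, 8 and 5. Of 12 Wnt targets 3 were lower (25%), among them Notum, an enzyme that inactivates Wnt proteins (10.8 and 10.3 CPM against 31.6 and 27.1 CPM), and Lef1, and Nkd1 was higher; Notum had 10.1 CPM in DMSO. The 3 lowered cell cycle genes of 26 (11.5%) all act in G1. Ccnd2 was at 7.29 and 8.72 CPM against 43.6 and 40.2 CPM (log2 fold change -2.38, SE 0.15, adjusted p = 9.7e-13), and Ccnd1 at 72.9 and 70.5 CPM against 156 and 149 CPM. Cdk6 was at 39.4 and 40.3 CPM against 80 and 81 CPM, and its call was lost at a log2 of -1.0 without the first Dux OE library. Ccnd2 was at 5.64 CPM in Zscan4 OE and 2.28 CPM in DuxR70A OE, both below Dux OE. Gbx2, a homeobox gene downstream of LIF, was at 18.2 and 16.2 CPM against 74.7 and 75 CPM (log2 fold change -2.12, SE 0.13, adjusted p = 3.1e-13), with 43.5 CPM in DMSO and 16.2 CPM in DuxR70A OE. Of the 11 LIF-STAT3 pathway genes 0 were called (3 higher and 3 lower at an adjusted p under 0.05).

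Lineage lists held calls in both directions, to be read beside the 7.38% of all tested genes called higher and the 2.12% called lower. Of 11 tested formative and primed genes Foxd3, Zic2 (2.84 and 3.45 CPM against 12.8 and 10.9 CPM) and Lef1 (1.09 and 1.55 CPM against 4.55 and 4.27 CPM) were lower and Sox3 (3.21 and 3.65 CPM against 1.06 and 1.07 CPM) higher. Of 14 trophectoderm genes Tfap2c and Krt7 (0.948 and 0.473 CPM against 0.12 and 0.133 CPM) were higher and Gata2 (0.365 and 0.473 CPM against 1.43 and 1.33 CPM) lower. Of 15 primitive endoderm genes Cubn (1.82 and 3.24 CPM against 0.934 and 1.0 CPM) was higher and Sox7 (0.365 and 0.270 CPM against 1.06 and 0.733 CPM) lower. Of 8 tested mesendoderm genes 0 were called (1 lower at an adjusted p under 0.05). Among 19 germline and meiosis genes 18 had a positive log2 fold change and the median was 0.56, but only Slc25a31, the ADP/ATP carrier of male germ cells, was called (3.21 and 4.06 CPM against 1.62 and 1.87 CPM). Against Zscan4 OE the same list had a median of -0.45 and 5 genes called lower. Of 10 tested oocyte and maternal effect genes Npm2 was lower, with 0 and 1 reads in Dux OE and 4 and 10 in ESC. Of 22 adhesion and cytoskeleton genes Snai1 was higher (5.98 and 5.68 CPM against 3.67 and 2.07 CPM). Of 15 retinoic acid pathway genes the receptor gene Rarb was higher, on 5 and 7 reads in Dux OE and 1 and 0 in ESC (a ratio of 13.1 with a 95% counting interval of 1.93 to 559, adjusted p = 0.0133), and its relative Rarg was lower (95.6 and 99.8 CPM against 201 and 200 CPM, log2 fold change -1.04, SE 0.14, adjusted p = 2.6e-06). In 37 tested Hox genes 1 rose and 2 fell, with Hoxa7 at 0.219 and 0.338 CPM against 0.810 and 0.800 CPM. The calls of Krt7, Gata2, Sox7, Cubn, Slc25a31, Npm2, Snai1, Rarb and Hoxa7 were each lost when 1 or more of the 4 libraries was left out.

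Regulators of Dux and of DNA methylation were also examined, beside the 7.38% of all tested genes called higher and the 2.12% called lower. Of 8 genes known as activators of Dux, Nelfa and Zscan4c (811 and 810 CPM against 5.73 and 6.13 CPM) were higher. Of 25 repressors of Dux and retrotransposons Zfp809 alone was called, while 20 of the 25 had a negative log2 fold change with a median of -0.24. In the DNA methylation list of 12 genes, Tet2 and Zfp57, a zinc finger protein that maintains methylation at imprinted loci (log2 fold change -1.32, SE 0.08, adjusted p = 1.5e-12), were lower and Dppa3 higher. Of 19 tested imprinted genes 0 were called, and 4 were higher and 3 lower at an adjusted p under 0.05. Zfp57 had means of 289 CPM in DMSO, 382 in Zscan4 OE, 207 in DuxR70A OE and 187 in SE KO Dux OE.

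Lists of basic cell functions held few or no calls, yet their directions were uneven. All 25 genes of nucleolar ribosome biogenesis were lower in Dux OE, 0 of them called and 19 at an adjusted p under 0.05, with a median of -0.40. Ncl, the gene of nucleolin, was at 2908 and 2722 CPM against 3820 and 3792 CPM (log2 fold change -0.44, SE 0.09, adjusted p = 7.3e-04). Npm1, another nucleolar protein gene, was at 2091 and 2062 CPM against 2382 and 2408 CPM (log2 fold change -0.21, SE 0.09, adjusted p = 0.0817). Against DMSO the median of this list was 0.12 with 11 of 25 negative, and against DuxR70A OE 0.52 with 1 of 25 negative, so its direction depends on the control. Of 27 splicing factor genes 24 were negative (median -0.32, 0 called, 18 at an adjusted p under 0.05), among them Sf3b1 at 693 and 681 CPM against 1071 and 1076 CPM, and against DMSO the median was -0.10. Of 23 cholesterol synthesis genes 21 were negative, with a median of -0.31 and 0 called. Cytosolic ribosomal protein genes leaned the other way, 62 of 79 positive with a median of 0.12 and 0 called. Of 18 glycolysis genes 0 were called and 14 were positive, with Pkm at 4740 and 4715 CPM against 4266 and 4412 CPM (log2 fold change 0.12, SE 0.12, adjusted p = 0.506). Of 82 nuclear-encoded respiratory chain genes 2 were called higher, and of 13 mitochondrially encoded mRNAs mt-Nd4l, which rests on 1 library (21.6 and 5.81 CPM against 6.23 and 6.13 CPM). In the lists for which edgeR called 0 genes, DESeq2 called 0 as well. At an unadjusted p under 0.05, edgeR had 0 higher and 21 lower nucleolar genes, 0 and 18 splicing genes, 0 and 15 cholesterol genes, 13 and 3 ribosomal protein genes, and 5 and 2 glycolysis genes. For apoptosis these counts were 6 and 8, for LIF-STAT3 3 and 5, for imprinted genes 5 and 3, and for mesendoderm 0 and 1.

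The SE KO Dux OE and DMSO libraries gave a comparison that shares no library with Dux OE against ESC, though genotype and vehicle differ as well. In it 2585 genes (12.3%) were higher and 1557 (7.43%) lower. Of the 1547 genes raised in Dux OE against ESC, 978 were called higher there (63.2% of the raised genes and 37.8% of the 2585), and 73 lower. Of the 445 lowered genes, 85 were called lower (19%, and 5.46% of the 1557) and 66 higher. The 9 Zscan4, 5 Usp17l and 3 Tcstv genes tested were all called higher in this comparison. Of the 850 raised genes that were called against all 4 references, 761 were also among the 2585. The 850 were chosen in part by their rise against these same DMSO libraries, so this overlap is favoured by the choice and is a description only. The fibroblast markers stood higher in the SE KO Dux OE libraries, at a sum of 127 and 131 CPM against 53.3 and 54.3 CPM in DMSO, with 5 of 6 called and Postn present. Their part in the other calls of this comparison was not tested.

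Zscan4 OE gave a reference with the same doxycycline dose and time. The test of the difference called 1759 genes higher in Dux OE than in Zscan4 OE and 1041 lower. All 9 Zscan4 genes were higher in Dux OE than in Zscan4 OE, for Zscan4d with a mean of 119 CPM in Zscan4 OE. So were the 5 Usp17l and 3 Tcstv genes, 6 of 7 Tdpoz and 8 of 10 Obox genes. Of the histone genes raised against ESC, 11 of 23 were. How many reads of the Zscan4 transgene were counted on the Zscan4 genes is not known. In Zscan4 OE the levels of Usp17le, Eif4a3l1 and Gm5662 were 21.7, 20 and 124 CPM, above ESC and far below Dux OE. Dux itself was present in Zscan4 OE, with a mean of 1.34 CPM of Duxf3.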

How the data were processed

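Poly(A) RNA-seq of R1 ESCs gave 26 libraries in 13 groups of 2. The authors deposited whole-number counts of reads per gene, without normalization, with each gene's position and exon length. The submitters' processing notes name FastQC, Trimmomatic, STAR, featureCounts, DESeq2 and mm10. Strand and multi-mapping settings are not given in the sources used here. For testing, edgeR 4.0.16 under R 4.3.3 fitted a quasi-likelihood model with 1 term per group to the 26 libraries, using TMM scaling, filterByExpr (20953 of 55291 genes) and a prior count of 0.125. The common biological coefficient of variation was 0.0833, with 13.0 median prior degrees of freedom, so the spread leans on the other groups. SE is the log2 fold change divided by the square root of F. The scripts were first tested on simulated data.

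Replicates differed by more than sampling noise (chi-square per degree of freedom 2.05 in Dux OE and 1.81 in ESC). Nothing in the labels ties same-numbered libraries together, and the correlation of their deviations from the group means across genes was -0.0022. The floor was 3 reads per library, and intervals of ratios are exact at 95%.

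Of the genes, 53292 are named in GENCODE M21, 99.2% of them with the same start and end. Promoters are RefSeq's (GRCm38.p6). Members and gene lists were chosen with earlier results of these data known. Named genes were Duxf3, the called genes with the largest rises and falls in log2 fold change and in CPM (mean of at least 5 CPM over the 4 libraries for both), and up to 4 called members in each direction of every list, all of core and naive pluripotency, and the 2 most abundant of a list without calls; a selection of these is given, some are not reported here, and others are marked where named. Alternatives were RLE, library size, no filter, DESeq2 1.42.0, the 4 libraries alone, a replicate block, no fold threshold, DMSO or DuxR70A OE (the latter added after seeing the data) as control, and leaving out each library.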

Additional observations from a re-analysis of the deposited data

How the results depend on the processing

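With 2 libraries a group, single calls lean on the spread pooled over all groups, and genes near the filter rest on a few reads. The counts of genes called against ESC stayed within 1.5 times under RLE (1564 higher, 437 lower), library size (1599 and 398), no filter (1554 and 529), DESeq2 (1429 and 378), the 4 libraries alone (1481 and 458) and the replicate block (1539 and 437). The block gave 1736 and 1020 against Zscan4 OE and 2546 and 1534 for SE KO Dux OE against DMSO, and among 189 named genes it ended 1 call. The replicate number is taken as a name only. Leaving out 1 library gave 1577 to 1701 called genes, 1241 to 1371 higher and 301 to 336 lower, with the lone library assumed to vary like the other groups. Without a fold threshold 3089 genes were higher and 2680 lower. With DMSO as the control 3811 were called, 2408 higher and 1403 lower. With DuxR70A OE as the control, an alternative chosen after seeing the data, 1280 were lower. The cause of these shifts was not tested.

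Turned signs of the log2 fold change are listed only for named genes called against ESC or against the control given. All of the listed genes were called against ESC except Tcl1. Named genes called in neither comparison are left out, and some of them turned too, such as Klf2 (-0.12 against ESC and 0.75 against DMSO). The value with DMSO as the control was Atf3 -1.16, Cdk6 0.08, Ddit3 -0.65, Dido1 0.47, Dusp4 -0.59, Hoxa7 0.72, Map2 -0.87, Nkd1 -0.63, Notum 0.06, Nupr1 -1.20, Tcl1 -1.36, Vldlr -2.47, Zfp324 0.48 and mt-Nd4l -0.84, and with DuxR70A OE as the control Atf3 -0.34, Ccnd1 0.36, Ccnd2 1.84, Cdk6 1.25, Cyp27a1 -0.54, Ddit3 -0.87, Dido1 0.35, Fas -0.26, Gbx2 0.08, Gpr83 0.11, H1f10 -0.13, H2-M3 -0.19, Id3 1.58, Lef1 0.00, Map2 -0.59, Myc 0.30, Nkd1 -0.96, Notum 0.27, Nupr1 -0.42, Rarg 0.33, Setd1b 0.05, Tap1 -1.33, Vldlr -0.81, Zfp324 0.97, Zfp532 0.01 and Zic2 1.31. Leaving out 1 library gave mt-Nd4l values from -0.09 to 1.8. Some of the listed genes were called against ESC but against neither DMSO nor DuxR70A OE. Calls of named genes lost by leaving out 1 library were, with the log2 fold change left, without Dux OE replicate 1 those of Cdk6 (-1.0), Dppa3 (1.37), Egr1 (-0.88), Fas (1.37), Gata2 (-1.54), Hoxa7 (-1.24), Krt7 (1.83), Npm2 (-2.64), Snai1 (0.97), Sox7 (-1.71) and Usp18 (5.04), without Dux OE replicate 2 those of Cubn (0.91), Dusp4 (0.70), Fas (1.74), H1f10 (0.96), Hoxa7 (-1.85), Nkd1 (0.93), Nlrp4f (1.04), Npm2 (-6.17), Rarb (3.27), Slc25a31 (0.88), Sox7 (-1.29) and Usp18 (5.55), without ESC replicate 1 those of Dusp4 (0.89), H1f10 (0.93), Hoxa7 (-1.49), Krt7 (2.35), Olfr985 (-0.88), Slc25a31 (0.96), Sox7 (-1.20), Usp18 (5.30) and mt-Nd4l (1.15), without ESC replicate 2 those of Dppa3 (1.29), Fas (1.04), Hoxa7 (-1.51), Krt7 (2.44), Nkd1 (0.99), Npm2 (-2.63), Rarb (2.64), Snai1 (0.66), Usp18 (5.31) and mt-Nd4l (1.12).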

Other observations

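Further gene families are given beside the 7.38% of all tested genes called higher and the 2.12% called lower. Of 12 tested Nlrp genes, a family with members expressed in oocytes, 1 was higher and 1 lower (8.3% each). Of 9 tested Rhox genes, X-linked homeobox genes of the reproductive tract, 1 was higher against ESC (11.1%) and 5 against DMSO. Of 28 tested keratin genes 2 were higher (7.1%) and 1 lower (3.6%), and of 15 claudin genes, which encode tight junction proteins, 2 were higher (13.3%). The 12 tested Mage genes had 0 calls, with 3 higher at an adjusted p under 0.05, and 3 of 45 genes with Fbxo or Fbxw symbols were higher, Fbxo15 among them. Of 30 tested clustered protocadherin genes 1 was higher (3.3%) and 3 lower (10%), and 22 had a negative log2 fold change. Of 16 genes that host small nucleolar RNAs 0 were called and 5 were lower at an adjusted p under 0.05.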
